A study of Rattus norvegicus with 8 samples.

Results

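The imprinted Dlk1-Dio3 locus holds a large group of miRNA genes, and its miRNAs were followed in the kidneys of rats treated with aristolochic acid (AA) and of control rats. Members were chosen by name, as both arms of 46 miRNA families that map to the locus. The rule did not use their values, but earlier results of these data were known when it was made. The deposited table had 71 such mature miRNAs among its 620, from 42 of the 46 families, and 29 hairpins were listed with both arms and 13 with 1 arm. The names miR-673, miR-540, miR-679 and miR-654 had no row.

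All 8 animals were male Big Blue transgenic rats of the strain Fisher 344, given as 18 weeks old, and all carried the transgene. The 4 AA-treated rats were gavaged with the sodium salt of AA, a nephrotoxic and carcinogenic plant compound. The dose was 10.0 mg/kg in a volume of 4 ml/kg, given on 5 days a week, and dosing began at an age of 6 weeks. The 4 control rats were dosed on that schedule with 0.9% sodium chloride. The treatment protocol gives 12 weeks of dosing, whereas in the sample descriptions the duration grows with the rat number, from 12 weeks for rat 1 over 13 and 14 to 15 weeks for rat 4 in both groups, so that the rat number and the stated duration cannot be told apart. Each library came from a piece of the kidney of 1 rat taken 1 day after the last dose. In such bulk tissue, fewer cells of a type and less RNA per cell cannot be told apart.

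The locus is named after its paternally expressed protein genes Dlk1 and Dio3. Its miRNAs come from the maternal chromosome, where they are cut from long noncoding transcripts, among them Meg3, an RNA antisense to the paternally expressed gene Rtl1, and Mirg, which hosts the largest run of hairpins. The miRNAs are best known from brain, embryo and placenta, and in kidney the Mirg cluster has been studied in mesangial cells in diabetic nephropathy. Each hairpin gives 2 arms, and the arm marked with an asterisk is the one that was seen as the minor product when it was named.

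In RefSeq, all 71 miRNAs were placed among 59 miRNA genes between Dlk1 and Dio3 on chromosome 6 of the rat assembly GRCr8. RefSeq lists 100 mature miRNAs in this interval, 88 on the plus and 12 on the minus strand. A miRNA selects its targets mainly through its seed, bases 2 to 8 from the 5′ end. The 100 sequences had 93 distinct seeds, and 6 seeds were shared by at least 2 of them. Only 4 of the seeds were also found in a RefSeq rat miRNA outside the locus. Their median GC content was 47.8%, against 47.6% for the 624 mature miRNAs elsewhere, so that base composition did not set the locus apart. The deposited table names no genome build, and names without an arm were read as the arm that miRBase used for them.

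The sequences below are the RefSeq mature forms of the miRNAs on which the results turn, 5′ to 3′, with the seed in capitals. The first are the 5 most abundant members.
miR-379: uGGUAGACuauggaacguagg
miR-411: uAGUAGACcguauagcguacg
miR-134: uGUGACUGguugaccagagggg
miR-541: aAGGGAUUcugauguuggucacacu
miR-381: uAUACAAGggcaagcucu
The next are both arms of the miR-382 hairpin, one of which had the lowest fold change among members with a mean of at least 10 normalized counts, followed by miR-410, miR-494 and miR-495, whose groups did not overlap, and by miR-127, the leading miRNA outside the Mirg cluster.
miR-382: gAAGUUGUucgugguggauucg
miR-382*: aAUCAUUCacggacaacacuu
miR-410: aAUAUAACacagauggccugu
miR-494: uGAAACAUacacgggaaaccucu
miR-495: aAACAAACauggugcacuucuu
miR-127: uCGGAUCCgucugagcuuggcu
The last show how alike some members are.
miR-300-3p: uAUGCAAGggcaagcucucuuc
miR-376b-5p: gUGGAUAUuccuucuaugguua

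All of these lie on the plus strand, from miR-127 at chr6:134328510-134328531 over miR-379 at chr6:134543460-134543480 and miR-382* at chr6:134569992-134570012 to miR-410 at chr6:134579808-134579828. miR-379 and miR-411 differed at 1 of the 7 seed bases and at 7 of 21 bases over all. miR-381, for which RefSeq holds 18 bases, differed from miR-300-3p at 1 of these 18, and this base lay in the seed. miR-376b-5p and miR-376c-5p had the same seed and differed at 1 of 21 bases. How reads matching several miRNAs were assigned is not given in the sources used here, so that the counts of miR-381, miR-300-3p and miR-376b-5p are uncertain to that extent. Apart from miR-381, whose seed AUACAAG is also that of miR-539-3p, and miR-376b-5p, whose seed is also that of miR-376c-5p, none of the 13 miRNAs shown shared its seed with another RefSeq miRNA of the locus.

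The libraries held 13412373 to 15616670 miRNA counts per rat, with similar depth in both groups. The values below are normalized counts, that is, counts divided by a size factor per rat (0.818 to 1.05 in the control and 0.891 to 1.28 in the AA-treated rats). All 620 miRNAs entered an edgeR quasi-likelihood fit, and a miRNA was called where its Benjamini-Hochberg adjusted p was under 0.05 and its group means differed by more than 1.5-fold. Fold changes on the log2 scale are AA-treated over control. The rats numbered 4 stood apart in the locus, control rat 4 with the highest and AA-treated rat 4 with the lowest sum, and values without them are given beside the results that they moved most.

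The locus was a minor source of miRNA in these kidneys. Its 71 miRNAs held 23604 counts over the 8 rats, which was 0.0214%, 0.0222%, 0.0218% and 0.0265% of the counts in control rats 1 to 4 and 0.0203%, 0.0214%, 0.0167% and 0.0113% in AA-treated rats 1 to 4. Of the AA-treated rats, rat 2 alone reached the control range, with 0.02143% against 0.02142% in control rat 1. As normalized counts, the sum was 3396, 3583, 3207 and 4447 in the control rats and 3048, 2543, 2279 and 1439 in the AA-treated rats. The groups did not overlap on this scale, and the control mean was 1.57 times the AA-treated mean. As a share of counts the ratio was 1.32. Without AA-treated rat 4 the ratios were 1.39 and 1.18. This sum was made from chosen members and is given without a test.

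**Figure D1:**
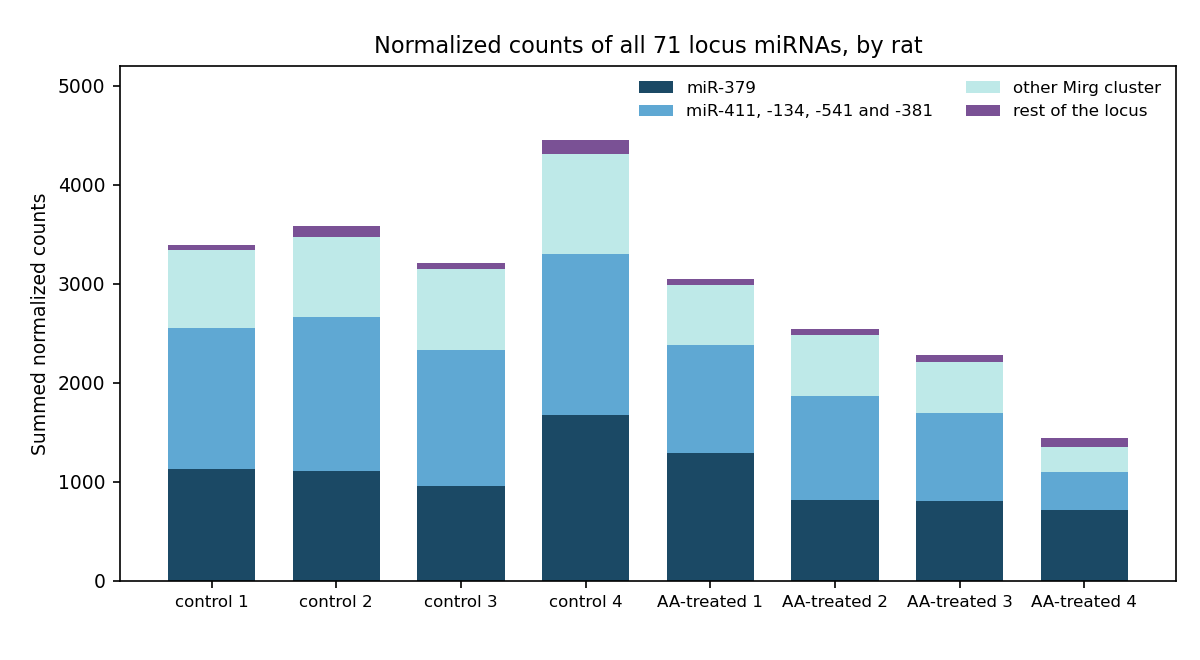
Stacked bars of the summed normalized counts (linear axis from 0) of all 71 locus miRNAs in each of the 8 rats, divided into miR-379, the next 4 most abundant miRNAs, the other miRNAs of the Mirg cluster and the rest of the locus. Every AA-treated bar is lower than every control bar, and AA-treated rat 4 has the lowest, at 1439.

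Abundance was very unequal within the locus. miR-379 alone made up 29.8% to 49.9% of the locus counts of a rat, and the 5 most abundant miRNAs held 74.7% of all locus counts. A mean of at least 10 normalized counts was reached by 27 of the 71 miRNAs. Another 20 had a lower mean but more than 3 counts in at least 1 rat. The remaining 24 had at most 3 counts in every rat and 73 counts in all, with 10 for miR-412* as the most, and 39 of the 71 were detected in every rat. Between 51 and 58 of the 71 miRNAs were detected per control rat and between 48 and 55 per AA-treated rat, so that the groups overlapped.

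By position, the 57 miRNAs of the Mirg cluster held 97.3% of the locus counts and 26 of the 27 more abundant miRNAs. The 8 miRNAs antisense to Rtl1 held 2.61%, nearly all of it miR-127. The 5 miRNAs between Meg3 and Rtl1 (miR-770, miR-493, miR-337, miR-337* and miR-665) had 14 counts over the 8 rats. miR-370, which lies between the Rtl1 antisense group and the Mirg cluster, had 3 counts. The summed Mirg cluster had 3343, 3474, 3153 and 4311 normalized counts in the control rats and 2984, 2479, 2214 and 1351 in the AA-treated rats, without overlap, a 1.58-fold lower mean. The summed Rtl1 antisense miRNAs had 50.9, 107.6, 52.1 and 135.6 in the control rats and 60.6, 63.2, 61.1 and 85.5 in the AA-treated rats, all of them within the control range. The difference between the 2 regions was not tested.

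Treatment with AA went with lower levels of most measurable locus miRNAs, but few differences passed the test. Of the 71 miRNAs, 2 were called, miR-382* and miR-411, both lower in the AA-treated rats, and 0 were higher. These are 2.82% of the members, where 9.03% of all 620 miRNAs were called, 3.23% as lower and 5.81% as higher. The locus thus held no larger share of calls than the whole table. More than 3 counts in some rat were found for 47 of the 71 and for 498 of the 620. The shares therefore do not rest on equally measurable miRNAs. With an unadjusted p under 0.05 there were 16 locus miRNAs (22.5%), all lower, against 23.9% of all miRNAs in either direction and 10.0% in the lower direction. Leaving out any 1 control rat or AA-treated rat 3 left 1 call, and leaving out AA-treated rat 1 gave 4. Of all 620 miRNAs, 40 to 43 were called without 1 control rat, 62 without AA-treated rat 3 and 60 without AA-treated rat 1. The number of locus miRNAs with an unadjusted p under 0.05 was 10 without control rat 2 or 3, 7 without control rat 4 and 9 without AA-treated rat 4.

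The direction was more uniform than the calls. Among the 27 miRNAs with a mean of at least 10 normalized counts, 26 (96.3%) had a log2 fold change below 0, where 48.6% of all 370 miRNAs at that level did. Their median log2 fold change was −0.72, with a range of −1.61 to 0.12, against 0.02 over the 370 and 0.08 over the other 343. The group means differed by over 1.5-fold in 17 of them and by over 2-fold in 6, always with the lower mean in the AA-treated rats. Of the 20 less abundant miRNAs, 17 were lower and 3 higher (miR-434*, miR-136 and miR-667*, named after their values were seen), and of the 24 with at most 3 counts, 14 were lower and 10 higher. Over all 71 miRNAs, 57 were lower and 14 higher, with a median of −0.76. These miRNAs share their transcripts and their rats and are not independent of each other. A median this low was not limited to the locus, since it was −0.77 over 9 kidney tubule miRNAs with a mean of at least 10 normalized counts. With total counts in place of size factors, the median of the 370 moved up by 0.27, to 0.28, and that of the 27 was −0.46, with 24 of the 27 below 0 and miR-376b-5p, miR-369-5p and miR-496 above it.

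The 4 control and the 4 AA-treated rats did not overlap for 10 of the 47 miRNAs with more than 3 counts in some rat (21.3%). All 10 were lower in the AA-treated rats, where 8.23% of the 498 such miRNAs in the table were separated in that direction and 11.8% in the other. They were miR-411, miR-134, miR-541, miR-381, miR-382*, miR-494, miR-410, miR-495, miR-154* and miR-329*. Such a separation of 4 against 4 rats fixes the two-sided exact permutation p at 0.0286, the smallest that this design allows. This p thus restates how the 10 were picked, is not adjusted over the 47 and adds no evidence. With total counts, 3 were separated, and without AA-treated rat 2, 17 were.

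**Figure D2:**
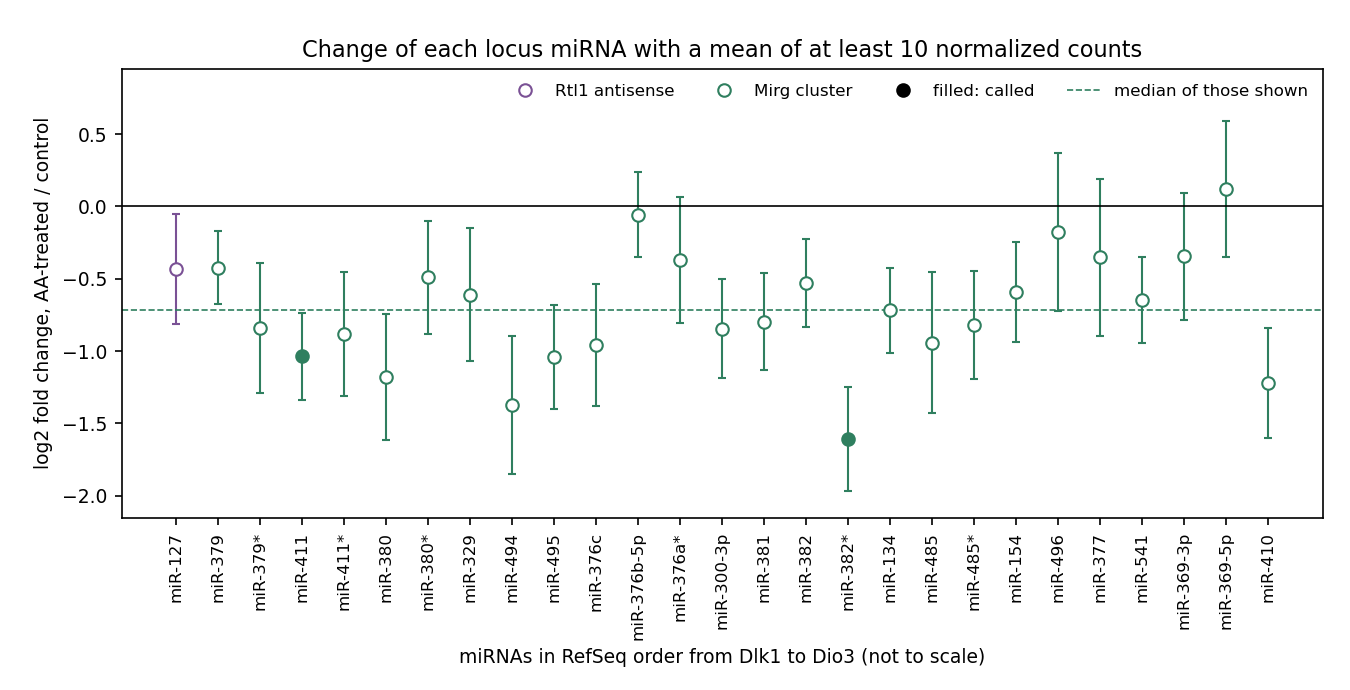
Log2 fold change, AA-treated over control, of the 27 locus miRNAs with a mean of at least 10 normalized counts, in RefSeq order from Dlk1 to Dio3 and not to scale. Points are edgeR estimates with SE bars from 4 against 4 rats, filled where called, and the dashed line is their median of −0.72. miR-369-5p is the point above 0, and miR-382* is the lowest at −1.61.

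miR-382 is a hairpin whose 5p product has been studied in renal tubular cells. Its other arm, miR-382*, had 55.1, 65.9, 57.8 and 46.4 normalized counts in the control rats and 23.6, 22.6, 19.7 and 8.14 in the AA-treated rats. The highest AA-treated rat was thus well below the lowest control rat. The mean fell from 56.3 ± 8.03 (SD, n = 4) to 18.5 ± 7.11 (SD, n = 4), a 3.04-fold difference and a log2 fold change of −1.61 ± 0.36 (SE; edgeR adjusted p = 0.0113). Without AA-treated rat 4 the ratio of means was 2.56. The call held in all 16 other settings in which it was refitted, with adjusted p values from 2.25e-04 to 0.0407.

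The main arm of the hairpin, miR-382, had 54.0, 56.0, 59.7 and 45.2 normalized counts in the control rats and 51.6, 39.8, 32.5 and 25.2 in the AA-treated rats. Here AA-treated rat 1 lay within the control range, and the log2 fold change of −0.53 ± 0.30 (SE) was not called (edgeR adjusted p = 0.311). The 2 arms were about equally abundant in the control rats and no longer so in the AA-treated rats. The log2 ratio of miR-382 to miR-382* was −0.03, −0.23, 0.05 and −0.04 in the control rats and 1.11, 0.80, 0.71 and 1.58 in the AA-treated rats. The groups did not overlap, and the means of −0.06 ± 0.12 and 1.05 ± 0.39 (SD over 4 rats each) differed by 1.12 (two-sided exact permutation p = 0.0286, adjusted over 6 hairpins 0.171).

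Ratios of arms were compared for the 6 hairpins with both arms at a mean of at least 10 normalized counts, after adding 0.5 to the counts, and the groups overlapped in the other 5. The next smallest p was that of miR-369, for which the log2 ratio of miR-369-3p to miR-369-5p was 2.03 ± 0.33 in the control and 1.44 ± 0.47 after AA treatment (SD over 4 rats each; exact permutation p = 0.143, adjusted 0.429). For miR-411 the ratio differed by −0.13 and hardly varied, with 4.62 ± 0.16 against 4.49 ± 0.30 (SD over 4 rats each). With adjustment over the 6 hairpins, 0 ratios passed, and 1 had an unadjusted p under 0.05, namely miR-382. A hairpin that separates alone could not pass. The smallest exact permutation p of this design, 0.0286, becomes 0.171 when adjusted over 6, so that the adjusted value does not decide whether the arm ratio of miR-382 changed. A level below 50 normalized counts in at least 1 arm of each hairpin leaves these ratios with a large counting error.

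**Figure D3:**
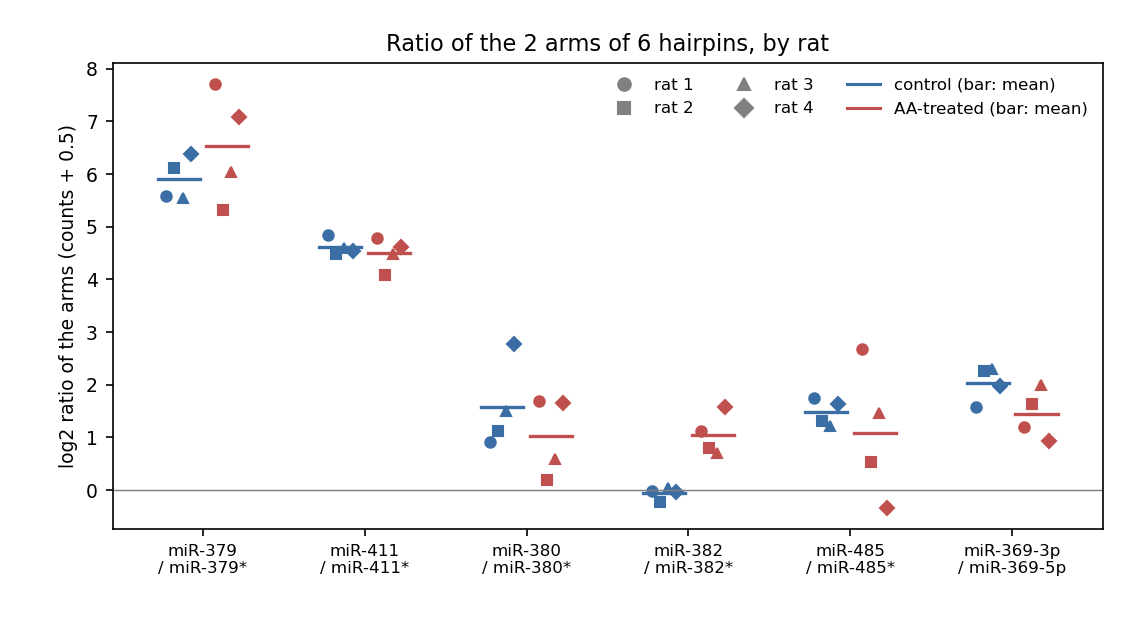
Log2 ratio of the 2 arms (counts plus 0.5) of 6 locus hairpins, with 1 symbol per rat and a bar at the mean of each group of 4. The control and AA-treated rats separate for miR-382, with means of −0.06 and 1.05, and overlap for the other 5.

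miR-411 lies next to miR-379 and was the second most abundant miRNA of the locus. It had 404.3, 529.4, 421.9 and 557.2 normalized counts in the control rats and 295.1, 296.6, 231.7 and 109.1 in the AA-treated rats. All 4 AA-treated rats were below all control rats. The mean fell from 478.2 ± 76.3 to 233.1 ± 88.0 (SD over 4 rats each), 2.05-fold, with a log2 fold change of −1.04 ± 0.30 (SE; edgeR adjusted p = 0.0455). This edgeR call was near the threshold and was lost in 8 of 16 other settings, among them TMM normalization (adjusted p = 0.0516), total counts (0.118) and leaving out any single control rat (0.0689 to 0.112), with adjusted p values from 0.00998 to 0.118 over all of them. Its minor arm, miR-411*, had means of 19.2 ± 4.76 and 10.3 ± 5.36 (SD over 4 rats each), with overlap.

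miR-379, the first hairpin of the Mirg cluster and its most abundant, had 1128, 1109, 956.6 and 1679 normalized counts in the control rats and 1289, 821.0, 805.7 and 718.2 in the AA-treated rats. AA-treated rat 1 lay inside the control range and the other 3 AA-treated rats below it. The log2 fold change of −0.42 ± 0.25 (SE) was not called (edgeR adjusted p = 0.324). Its minor arm, miR-379*, had 19.4 ± 3.08 and 10.7 ± 7.14 (SD over 4 rats each).

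miR-134 is known in neurons, where it acts on dendritic spines through Limk1. It had 456.3, 383.3, 355.5 and 464.3 normalized counts in the control rats and 308.6, 304.4, 279.1 and 117.3 in the AA-treated rats. All AA-treated rats were below all control rats, and rat 4 was far below the others of its group. The log2 fold change was −0.72 ± 0.29 (SE; edgeR adjusted p = 0.158), and −0.47 without AA-treated rat 4. miR-134* had at most 4 counts in a rat.

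miR-541 had 328.5, 330.6, 293.0 and 306.7 normalized counts in the control rats and 261.5, 234.1, 217.9 and 90.4 in the AA-treated rats. The control rats lay close together, at 314.7 ± 18.1 (SD, n = 4), and the AA-treated rats were all lower and more spread, at 201.0 ± 75.9 (SD, n = 4; log2 fold change −0.65 ± 0.30 SE, edgeR adjusted p = 0.200). miR-381 had 234.9, 309.7, 307.2 and 296.9 in the control rats and 228.9, 206.8, 164.7 and 61.9 in the AA-treated rats. Its groups were separated by the small step between control rat 1 and AA-treated rat 1 (log2 fold change −0.80 ± 0.34 SE, edgeR adjusted p = 0.172). Leaving out AA-treated rat 4 gave −0.40 for miR-541 and −0.51 for miR-381 on the log2 scale. miR-541* had at most 4 counts and miR-381* at most 1 in a rat.

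**Figure D4:**
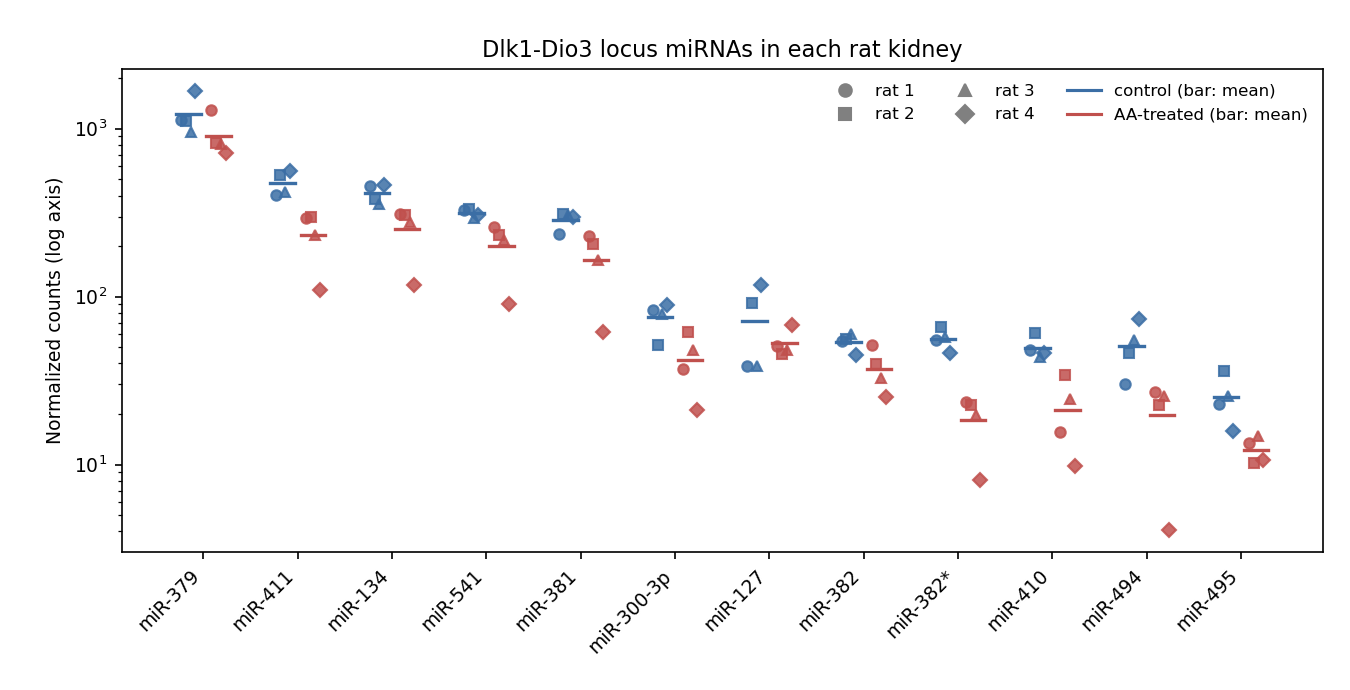
Normalized counts (log axis) of 12 locus miRNAs in each rat, with 1 symbol per rat number and a bar at the mean of each group of 4. AA-treated rat 4 (red diamond) is lowest for most of them, such as miR-494 at 4.07, but not for miR-127.

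Further along the Mirg cluster, miR-410, its last hairpin in this table, had 47.8, 60.4, 43.6 and 46.4 normalized counts in the control rats and 15.7, 34.3, 24.7 and 9.77 in the AA-treated rats. The groups were separated, with a log2 fold change of −1.22 ± 0.38 (SE; edgeR adjusted p = 0.0658), and its adjusted p was under 0.05 in 5 of 16 other settings, with DESeq2 at 0.0192, and it ranged from 0.0192 to 0.165 over the 16. miR-494, which has been studied in ischemic kidney injury, had 30.1, 46.1, 55.0 and 73.3 in the control rats and 26.9, 22.6, 25.6 and 4.07 in the AA-treated rats. The lowest control rat was close to the highest AA-treated rat, and AA-treated rat 4 held 0.162 times the mean of the other 3 (log2 fold change −1.37 ± 0.48 SE, edgeR adjusted p = 0.101, DESeq2 adjusted p = 0.0410, and 0.0410 to 0.230 over the 16 other settings). Leaving out AA-treated rat 4 gave a log2 fold change of −0.97 for miR-410 and of −1.02 for miR-494.

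miR-495 had 22.9, 36.2, 25.6 and 15.9 normalized counts in the control rats and 13.5, 10.1, 14.8 and 10.6 in the AA-treated rats (log2 fold change −1.04 ± 0.36 SE, edgeR adjusted p = 0.0973). The AA-treated rats were close together and rat 4 was not their lowest. Of the 2 less abundant separated miRNAs, miR-154* had 11, 5, 7 and 6 counts in the control rats and 3, 6, 4 and 1 in the AA-treated rats before normalization, and its other arm, miR-154, had means of 25.4 ± 5.43 and 16.8 ± 5.03 normalized counts (SD over 4 rats each). miR-329* had 3, 2, 4 and 2 counts against 0, 1, 1 and 1, at or near the limit of 3 counts, so that no fold is given, and its other arm, miR-329, had means of 15.7 ± 3.95 and 10.2 ± 6.15 (SD over 4 rats each).

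miR-380 had a log2 fold change of −1.18 ± 0.44 (SE; edgeR adjusted p = 0.127), but its control mean rested on 1 rat. It had 43.7, 43.9, 43.6 and 119.7 normalized counts in the control rats and 48.3, 18.7, 25.6 and 18.7 in the AA-treated rats. AA-treated rat 1 was above 3 of the control rats. The log2 fold change was −0.67 without control rat 4 and −0.50 without both rats numbered 4. Its other arm, miR-380*, had means of 18.7 ± 3.34 and 13.4 ± 5.19 (SD over 4 rats each). miR-300-3p had 83.2, 51.6, 78.7 and 89.2 against 37.0, 61.7, 48.3 and 21.2, with a small overlap (log2 fold change −0.84 ± 0.34 SE, edgeR adjusted p = 0.158).

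The exceptions in the Mirg cluster were few. miR-376b-5p had 67.6, 57.1, 57.8 and 53.8 normalized counts in the control rats and 68.5, 74.9, 41.4 and 42.3 in the AA-treated rats, with a log2 fold change of −0.06 ± 0.29 (SE), which was above 0 in 5 of 16 other settings. Its other arm, miR-376b-3p, had means of 13.8 ± 8.95 and 5.96 ± 4.48 (SD over 4 rats each). Among the 27 more abundant miRNAs, miR-369-5p was the one with a log2 fold change above 0, at 0.12 ± 0.47 (SE), and its values spanned 8.55 to 16.6 in the control rats and 4.07 to 20.2 after AA treatment. It was named here after its values were seen. The other miRNAs of the cluster with a mean of at least 10 normalized counts (miR-376c, miR-376a*, miR-369-3p, miR-377, miR-485, miR-485* and miR-496) had log2 fold changes from −0.96 for miR-376c to −0.18 for miR-496, and each had rats of the 2 groups that overlapped.

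miR-127 is fully complementary to the Rtl1 transcript and takes part in its repression in placenta. It had 38.5, 92.3, 38.9 and 117.3 normalized counts in the control rats and 50.5, 45.3, 48.3 and 67.6 in the AA-treated rats. The control rats fell on both sides of all the AA-treated rats. The log2 fold change of −0.43 ± 0.38 (SE) was not called (edgeR adjusted p = 0.496). The only other Rtl1 antisense miRNAs with more than 3 counts in a rat were both arms of miR-434 and of miR-136, with at most 10 counts each.

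AA-treated rat 4 was the lowest of the 8 rats for 21 of the 27 more abundant miRNAs (77.8%), where it was lowest for 22.7% of the other 343. All 27 were below the control mean in this rat. Relative to the control mean, the median log2 ratio of the 27 was −1.79 in AA-treated rat 4 and −0.43, −0.43 and −0.69 in AA-treated rats 1 to 3, against −0.11 to 0.16 in the control rats. The median of the other 343 miRNAs was 0.04 in AA-treated rat 4 and between −0.04 and 0.03 in the other 7 rats. The size factors hold this median near 0 by construction, so that it cannot show a shift of the whole library.

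Not all members shared this. The ratio of AA-treated rat 4 to the mean of AA-treated rats 1 to 3 had a median of 0.394 over the 27 miRNAs and of 1.01 over the others. It was 0.162 for miR-494, 0.178 for miR-369-3p and 0.309 for miR-381, but 0.739 for miR-379 and 0.827 for miR-495. miR-127, at 1.41, was the 1 miRNA of the 27 above 1. miR-379 accordingly made up 49.9% of the locus counts in this rat, against 29.8% to 42.3% in the other 7. Without AA-treated rat 4, 24 of the 27 miRNAs still had a lower mean in the AA-treated rats, and their median log2 fold change was −0.51. Of all 71 locus miRNAs, 2 were then called (49 of the 620 in the table), and 9 had an unadjusted p under 0.05. Without both rats numbered 4 the median was −0.44. In that setting 1 of the 71 was called (42 of the 620) and 9 had an unadjusted p under 0.05.

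**Figure D5:**
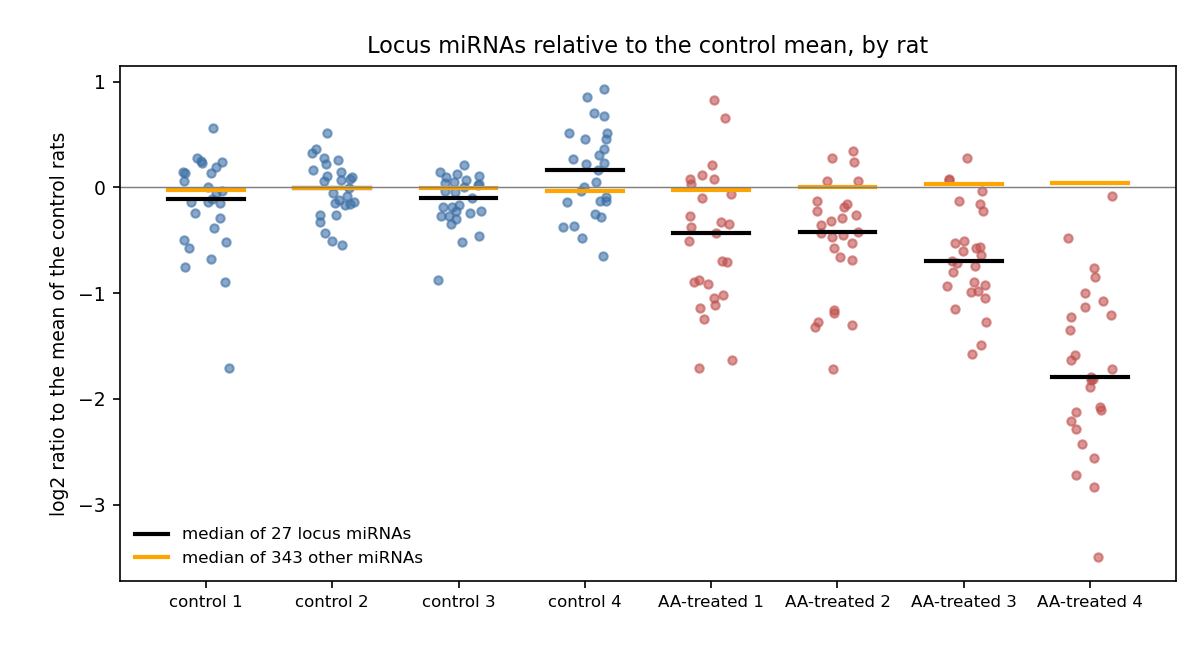
Log2 ratio to the mean of the control rats of the 27 locus miRNAs with a mean of at least 10 normalized counts, with 1 point per miRNA and rat, spread sideways for legibility. Black bars are the medians of the 27 and orange bars those of the 343 other miRNAs. The black bar falls to −1.79 in AA-treated rat 4 while the orange bars stay between −0.04 and 0.04.

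Markers of cell types were measured beside these values, since a tissue piece can hold cells in different proportions. For comparison, 5.81% of all 620 miRNAs were called higher and 3.23% lower. Of 10 leukocyte miRNAs, 4 were called higher (miR-142-3p, miR-223, miR-146b and mir-146b*) and 0 lower, and their sum was 18837 to 24635 normalized counts in the control and 41815 to 91129 in the AA-treated rats, highest in AA-treated rat 4. Of 13 miRNAs of kidney tubules, 2 were called lower (miR-194* and miR-204), and the sum, mostly miR-30a and miR-192, was 0.785 times the control mean and overlapped between groups. An unadjusted edgeR p under 0.05 was found for 5 of the 13 (23.9% of all 620). DESeq2 and limma-voom called 3 each (74 and 60 of the 620). At a mean of at least 10 normalized counts, the median log2 fold change was −0.77 over 9 tubule miRNAs, near the −0.72 of the locus. It was −0.46 over 12 nerve and neuroendocrine, −0.23 over 3 endothelial, 0.16 over 8 fibroblast and mural and 1.07 over 6 leukocyte miRNAs. Of 22 miRNAs of nerve and neuroendocrine cells, 4 were called lower (miR-375, miR-383, miR-129-2* and miR-219-2-3p) and 1 higher (miR-124). Their sum was 21780 to 26411 in the control and 13544 to 18684 in the AA-treated rats, without overlap. Of its 3 most abundant miRNAs, miR-7a (13431 against 8880) and miR-375 (3653 against 642.5) had the lower mean in the AA-treated rats, whereas miR-9 had 4790 in the control and 5808 in the AA-treated rats. The sum was 18684 in AA-treated rat 4, the highest of its group. Of 9 miRNAs of fibroblasts and mural cells and of 3 of endothelial cells, 0 were called by edgeR, and their sums, mostly miR-143 and miR-126, were 0.755 and 0.808 times the control mean. An unadjusted edgeR p under 0.05 was found for 3 of the fibroblast and mural miRNAs (miR-143 at a lower level and miR-199a-3p and miR-199a-5p at a higher, named after their values were seen) and 0 of the endothelial ones, and DESeq2 called 1 (miR-199a-3p) and 0. In each of these lists, 0 of the listed miRNAs had no count in any rat. miR-124, the defining miRNA of neurons, was nearly absent from the control kidneys, with a mean of 1.45 ± 1.56 normalized counts (SD, n = 4). Its mean in the AA-treated rats was higher, at 13.4 ± 8.31 (SD, n = 4; edgeR adjusted p = 0.0106), opposite in direction to the sum of its list. The part of these cell types in the values of the locus was not tested.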

How the data were processed

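Small RNA of the kidneys of 4 control and 4 AA-treated rats was sequenced, 1 library per rat. Per the methods of the study, the authors used the miRanalyzer webserver to count reads on the rat miRNAs of miRBase release 16, and they deposited whole-number counts per mature miRNA without normalization. The submitters' processing notes name CASAVA 1.7. Every column belonged to 1 of the 8 rats.

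From these counts, size factors were computed by median of ratios, and the values were tested with edgeR 4.0.16 (R 4.3.3), with all 8 rats and no covariate. Single values were compared by exact permutation over the 70 labelings of the rats. The limit of 3 counts covers counting error only. Alternatives were TMM, total counts, DESeq2 1.42.0, limma-voom (limma 3.58.1), robust moderation, a filter on a mean of 10 counts, a replicate block and leaving out rats. The fits were tested on simulated data. Python 3.11.15, pandas 2.3.3, scipy 1.17.1, numpy 2.4.6 and matplotlib 3.10.9 were used for the rest.

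The members and the lists of cell type miRNAs were chosen with earlier results of these data known. Named miRNAs were those called, the 10 most abundant, the 6 with the smallest p, those the study lists as changed (miR-494 and miR-382*), those whose groups did not overlap, the other arms of all these, and the called members of the lists. Those with at most 3 counts were named with counts alone. Sequences are from RefSeq (GRCr8). In the check of the rat numbers, the deviations of same-numbered rats over 370 miRNAs correlated from −0.02 to 0.31, with 3 of the 4 pairs over 0.1, and the rats were not treated as paired. No 2 libraries of a group agreed within sampling noise, the lowest chi-square being 393.9 per degree of freedom. The mRNA and protein data of the study were not used here.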

Additional observations from a re-analysis of the deposited data

Results flagged for a closer look

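In 52 groups of 4 rats (the named miRNAs and the locus sums), 3 had a rat far from the other 3, and chance alone gives about 1 in 20. miR-134 was at 117.3 normalized counts in AA-treated rat 4 while the others of its group had 279.1 to 308.6. miR-380 was at 119.7 in control rat 4 against 43.6 to 43.9 in the other 3 control rats. The locus share was 0.0265% of counts in control rat 4 against 0.0214% to 0.0222% in the other 3.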

How the results depend on the processing

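Of the locus miRNAs, 1 was called with TMM normalization, total counts or without both rats numbered 4, and 4 with DESeq2 or limma-voom. All of them were lower, against 2 with the settings of the report. Of all 620 miRNAs, 54 were called with TMM normalization, 69 with total counts and 42 without both rats numbered 4. DESeq2 called 74 and limma-voom 60, against 56 with the settings of the report. Leaving out 1 rat at a time gave 1 to 4 locus miRNAs (40 to 62 of all 620). The number of locus miRNAs called higher was 0 in each setting. With an unadjusted p under 0.05 there were 7 locus miRNAs with total counts, against 16 with the settings of the report. There were 10 when filtered on a mean of 10 counts, 9 without both rats numbered 4, and 7 to 18 when leaving out 1 rat. Groups were separated for 3 locus miRNAs with total counts and for 10 to 17 when leaving out 1 rat, against 10. For these counts the shares over all miRNAs are given for the settings of the report only. The cause of the differences between settings was not tested. The log2 fold change of miR-376b-5p became 0.21 with total counts and 0.034 without both rats numbered 4, and ran from −0.22 to 0.069 when leaving out 1 rat. That of miR-134* ran from −1.31 to 0.36 when leaving out 1 rat. The other called, abundant or separated members and their other arms, as far as they had more than 3 counts in a rat, kept their direction in the settings run. Further miRNAs named in the text were not followed through all settings. The median log2 fold change of the 27 more abundant miRNAs was between −0.83 and −0.44 over its alternatives. The ratio of control to AA-treated locus levels as a share of counts was between 1.12 and 1.44. With summed normalized counts it was 1.57, with 1.72 without miR-379 and 1.39 without AA-treated rat 4. Same-numbered rats were not the same animal. With the number as a replicate block, 3 locus miRNAs were called (74 of all 620), with miR-410 gained at an adjusted p of 0.0251, and 3 of the 4 control rats correlated best with the AA-treated rat of their own number. At this depth the 24 miRNAs with at most 3 counts allow no comparison.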

Other observations

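RefSeq places further miRNAs of the deposited table between Dlk1 and Dio3 that the choice by family did not include, and they were looked up partly after the values were seen. miR-341 had 9 counts over the 8 rats, with at most 4 in a rat. miR-666 and miR-666* had 2 counts each and mir-3578* had 1. miR-3592, which RefSeq places on the strand opposite miR-382*, had 3 counts, all in AA-treated rat 1.

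Of 8 miRNAs from other imprinted genes (miR-483, miR-675, miR-335, miR-296 and miR-298 with their arms), edgeR called 0 at an adjusted p under 0.05 and over 1.5-fold, and DESeq2 and limma-voom also called 0. An unadjusted edgeR p under 0.05 was found for 1 of them, miR-335. This miRNA, hosted by Mest, was the 1 with a mean of at least 10 normalized counts, and its means were 225.8 ± 50.2 in the control and 452.2 ± 290.7 after AA treatment (SD over 4 rats each). Its log2 fold change was 1.00 ± 0.36 (SE), opposite in sign to 26 of the 27 Dlk1-Dio3 miRNAs at that level. The size of this change leaned on AA-treated rat 3. The sum of the 8 miRNAs, nearly all of it miR-335, was 315.3, 303.6, 891.5 and 347.7 normalized counts in AA-treated rats 1 to 4. In the control rats it was 180.9 to 296.7.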
